A study of Mus musculus with 78 samples.

Results

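The Hox genes encode homeodomain transcription factors that set position along the body axis. They were taken here as every gene whose symbol is Hox, a cluster letter from a to d and a paralog number, which gave 39 members among the 22563 genes that the expression tables share. Of these, 11 lie in the Hoxa cluster, 10 in Hoxb, 9 in Hoxc and 9 in Hoxd. Their levels were followed through implantation and gastrulation of the mouse embryo, in 30 polyA RNA-seq libraries of 15 groups with 2 libraries each. All embryos came from C57BL/6N females mated to DBA/2N males.

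The in vivo table held 22 libraries from 11 groups: inner cell mass and trophectoderm at embryonic day 3.5 (E3.5), inner cell mass at E4.0, epiblast and visceral endoderm at E5.5 and again at E6.5, and 4 dissected parts of the E7.5 embryo, namely primitive streak, ectoderm, mesoderm and endoderm. Mothers of the E3.5 and E4.0 embryos were superovulated and the inner cell mass was freed by immunosurgery, whereas the E5.5 to E7.5 embryos came from natural matings. Further tables held embryos flushed at E4.5 and cultured in medium with 20% fetal bovine serum: 4 libraries of epiblast and visceral endoderm dissected after 4 days, and 4 libraries of embryos cultured for 1 or 2 days. The labels call the last 4 whole embryos while their protocol describes immunosurgery, so they are called embryos here. No deletion, transgene or drug distinguished any of these groups. The labels do not say that replicates came from separate litters, so p-values measure only the spread between these samples, which may be technical. The tissues are bulk samples, in which fewer cells of a type and less RNA per cell cannot be told apart.

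In each cluster the genes lie in the order of their paralog numbers, and the low-numbered genes at one end are the first to be transcribed, in the posterior part of the gastrulating embryo. Higher numbers follow later and more posteriorly, a relation known as collinearity. Wnt signals, Cdx factors and retinoic acid act on the clusters early, and Hox proteins bind DNA together with the TALE homeodomain cofactors Pbx, Meis and Pknox.

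The promoter-proximal sequences of Hoxb1, Hoxa2 and Hoxd1 are shown because the first 2 were among the genes that rose in the primitive streak while the third, a paralog of Hoxb1, stayed under 1 FPKM there. FPKM, fragments per kilobase of transcript scaled to the size of the library, was the deposited unit of expression. Each sequence is the 250 bases before the RefSeq start site on GRCm38.p6, read 5′ to 3′ on the gene's strand. Capitals mark matches on either strand to TGATNNAT, the bipartite Hox-Pbx motif. The Hoxb1 sequence is chr11:96365508-96365757 on the plus strand, the Hoxa2 sequence is chr6:52164832-52165081 on the minus strand, and the Hoxd1 sequence is chr2:74762730-74762979 on the plus strand.
Hoxb1: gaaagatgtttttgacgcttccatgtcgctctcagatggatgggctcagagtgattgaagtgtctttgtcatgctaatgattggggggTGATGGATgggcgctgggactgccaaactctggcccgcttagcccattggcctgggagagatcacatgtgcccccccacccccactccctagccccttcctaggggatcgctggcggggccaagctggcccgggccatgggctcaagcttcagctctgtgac
Hoxa2: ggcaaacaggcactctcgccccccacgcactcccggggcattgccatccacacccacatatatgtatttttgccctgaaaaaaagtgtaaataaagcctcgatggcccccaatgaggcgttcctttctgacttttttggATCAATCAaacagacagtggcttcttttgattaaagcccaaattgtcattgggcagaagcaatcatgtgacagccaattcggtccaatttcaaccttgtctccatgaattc
Hoxd1: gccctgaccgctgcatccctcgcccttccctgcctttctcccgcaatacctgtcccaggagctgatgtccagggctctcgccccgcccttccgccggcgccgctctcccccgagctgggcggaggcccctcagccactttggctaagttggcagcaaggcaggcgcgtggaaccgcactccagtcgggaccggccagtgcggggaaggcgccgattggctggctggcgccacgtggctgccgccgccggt
The match in Hoxb1 began 162 bases before the start site and that in Hoxa2 111 bases before it, on the opposite strand. Among all 32851 promoter windows of 300 bases (250 before and 50 after a start), 8.85% held TGATNNAT, against 4 of the 24 windows found for 22 of the Hox genes. These 4 belonged to Hoxa2, Hoxb1, Hoxb8 and Hoxd11. The Meis-Prep motif TGACAG was in 2 Hox windows (Hoxa2 and Hoxa3) and in 19.18% of all windows. The retinoid receptor half-site AGGTCA was in 7 Hox windows and 16.26% of all windows, the Cdx motif TTTATG in 5 and 11.85%, and the Tcf-Lef motif CTTTGA in 4 and 16.0%. No motif searched contains another, although CTTTGA can run into TGATNNAT through a shared TGA. A match describes these letters only. Of the 3 printed sequences, Hoxb1 held 7 CpG dinucleotides, Hoxa2 held 6 and Hoxd1 held 24.

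Most members were silent or nearly so in every library. Of 38 members, 20 never reached 1 FPKM in any of the 30 libraries, and Hoxa6 and Hoxc11 were listed at 0 in all of them. A group mean of at least 2 FPKM was reached by 8 members (Hoxa2, Hoxa10, Hoxb1, Hoxb2, Hoxb5, Hoxb6, Hoxb13 and Hoxc13), and a highest mean between 1 and 2 FPKM by 6 more (Hoxa3, Hoxa5, Hoxb7, Hoxc4, Hoxd1 and Hoxd9). The tables were normalized separately, so groups were ordered within the in vivo table alone. There 13 of these members had a group mean of at least 1 FPKM, of which 8 had their highest mean in the E7.5 primitive streak, 3 in E7.5 mesoderm, and 1 each in E6.5 visceral endoderm and E3.5 inner cell mass. The other, Hoxc13, reached such a mean only in cultured embryos.

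Levels were compared with limma on log2(FPKM + 1) values, in one fit of all 15 groups over 13493 genes that reached 1 FPKM in at least 2 libraries. A difference was called at a Benjamini-Hochberg adjusted p under 0.05 and a difference of at least 1 on the log2 scale. Differences on this scale understate the change of genes with low values. Only 13 of 38 members passed the filter: 3 Hoxa genes (Hoxa2, Hoxa3, Hoxa10), 6 Hoxb genes (Hoxb1, Hoxb2, Hoxb5, Hoxb6, Hoxb7, Hoxb13), Hoxc4 and Hoxc13, and Hoxd1 and Hoxd9. A member that passed only through a group where it was high had to differ from the others there. Hoxa3 reached 1 FPKM only in the 2 streak libraries and Hoxd1 only in the 2 mesoderm libraries. Hoxb5, Hoxb6 and Hoxd9 reached it only in the 2 mesoderm libraries and streak replicate 1. The calls of Hoxa3 in comparisons of streak are therefore a description. So are those of Hoxb5, Hoxb6, Hoxd1 and Hoxd9 in comparisons of mesoderm. Hoxa2, Hoxb1 and Hoxb2 reached 1 FPKM only in libraries of E7.5. Counts and medians over the 13 tested members include all these genes, so beside the values of all genes they are descriptions too. The highest value of any of the 25 members that did not pass was 2.00 FPKM, for Hoxa5 in primitive streak replicate 1. The spread behind each test is shared by all 15 groups, in most of which these genes were near 0, so fits of the compared pair of groups alone are given where they end a call.

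Endoderm markers were high in the libraries labelled visceral endoderm or endoderm. Visceral endoderm markers (Ttr, Afp, Apoa1, Amn, Cubn and Hnf4a) summed to between 1806 and 6258 FPKM in the visceral endoderm and E7.5 endoderm libraries. They summed to at most 7.11 FPKM in the other E7.5 libraries. The E7.5 endoderm libraries held both these and definitive endoderm markers (Sox17, Foxa2, Cer1, Trh and Cpm), which summed to 1395 and 1383 FPKM. The 2 columns of E3.5 inner cell mass appear to share reads: 99.4% of the genes below 0.3 FPKM in replicate 2 were also found in replicate 1, against 34.97% to 83.2% for other replicate pairs. They are described as 1 sample, with both values given, but entered the main fit as 2 libraries. Entering their mean as 1 library instead changed none of the calls of Hox genes named here.

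In epiblast at E5.5 and E6.5 the clusters were close to silent. At E5.5 and E6.5 the highest value of any member in any of the 4 libraries was 0.340 FPKM, for Hoxb7 in E5.5 replicate 1. The 36 members of paralog numbers 2 to 13 summed to 1.07 and 0.616 FPKM in the E5.5 epiblast libraries and to 0.215 and 0.320 FPKM in those of E6.5. Inner cell mass was higher, with sums of 4.93 and 6.12 FPKM at E3.5, mostly from Hoxb13, and 5.00 and 4.41 FPKM at E4.0, where Hoxa10 and Hoxc4 reached 1.35 and 1.41 FPKM in 1 library each. Hoxa2, Hoxb5 and Hoxb6 were listed at 0 in both E6.5 epiblast libraries. No member was called between E6.5 and E5.5 epiblast by limma, where 0.978% of all tested genes were called in either direction. None of the 13 tested members had an unadjusted p under 0.05 in that comparison, against 1276 of 13493 genes, and none was called under any alternative setting tried. With no member above 0.340 FPKM in these libraries, a difference of 1 on the log2(FPKM + 1) scale could not be reached. The lack of calls in the main fit therefore describes low levels and does not test for a change. Fgf8, Wnt8a and the streak marker T were called higher in E6.5 than in E5.5 epiblast by limma, so E6.5 epiblast is not taken as preceding gastrulation.

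At E7.5 the level within Hoxb dropped from Hoxb1 to Hoxb2 and again to Hoxb3 in all 8 libraries. The heat map by cluster and paralog number gives the order from number 2 onward at a glance.

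**Figure D1:**
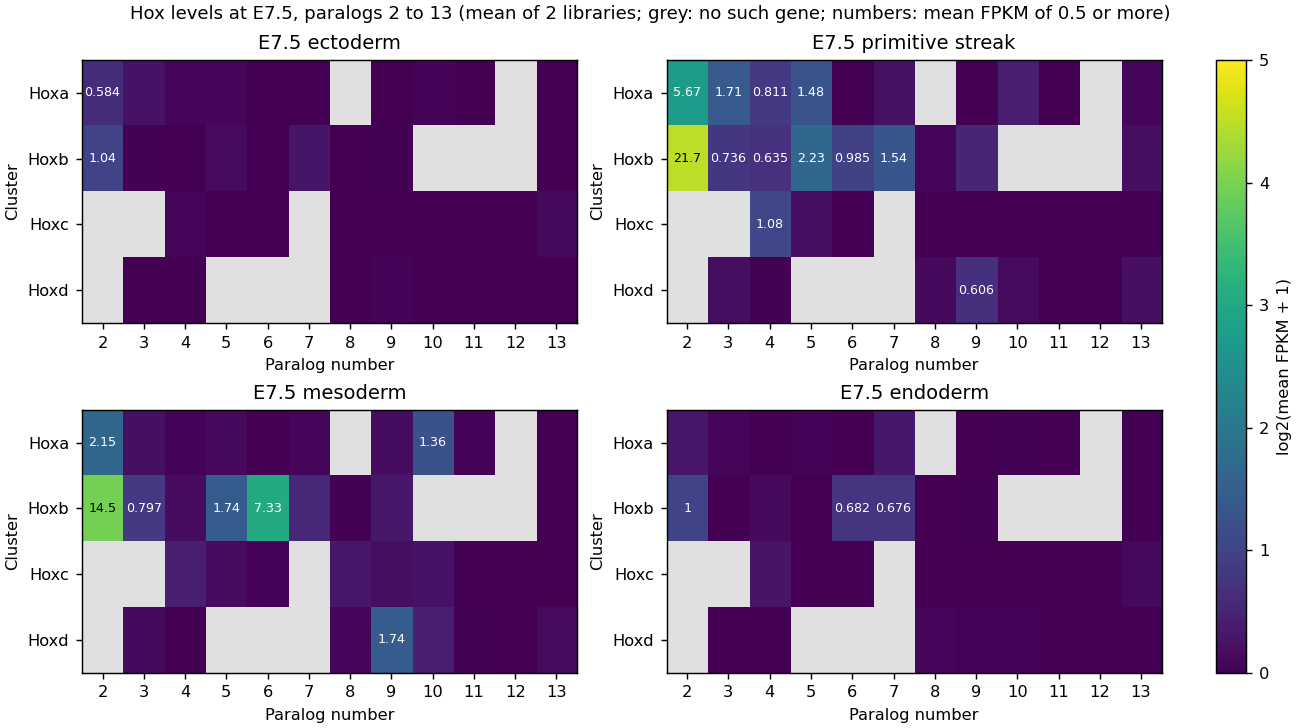
Mean level of each Hox gene of paralog numbers 2 to 13 in the 4 tissues of E7.5, as log2(mean FPKM + 1) of 2 libraries in colour, with clusters in rows and paralog numbers in columns; grey marks numbers with no gene in that cluster, and means of 0.5 FPKM or more are written out. The brightest cell is Hoxb2, at 21.7 FPKM in streak, and mesoderm alone is bright at Hoxb6, at 7.33 FPKM.

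Hoxb1, which marks the future rhombomere 4 of the hindbrain later in development, showed the steepest onset. It was at 147 and 138 FPKM in primitive streak, 47.8 and 62.1 FPKM in mesoderm, 4.77 and 9.26 FPKM in endoderm, and 5.30 and 4.35 FPKM in ectoderm. In every earlier in vivo library it was at most 0.188 FPKM. The streak libraries stood above both mesoderm libraries, which stood above the endoderm and ectoderm libraries, while endoderm and ectoderm overlapped.

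Hoxd1, its paralog in the Hoxd cluster, was far lower and peaked in another tissue. It was at 1.34 and 1.43 FPKM in mesoderm, 0.598 and 0.320 FPKM in streak, and at most 0.164 FPKM in ectoderm and endoderm. Both mesoderm libraries stood above both streak libraries, the reverse of the order of Hoxb1.

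Hoxb2 and Hoxa2, second-group genes that later act in the hindbrain and neural crest, were also highest in the streak, at lower levels than Hoxb1. Hoxb2 was at 25.1 and 18.2 FPKM in streak, 10.8 and 18.1 FPKM in mesoderm, 1.04 and 1.05 FPKM in ectoderm, and 0.612 and 1.39 FPKM in endoderm. Its lowest streak library stood only just above its highest mesoderm library. Hoxa2 was at 5.44 and 5.89 FPKM in streak, 1.61 and 2.68 FPKM in mesoderm, 0.649 and 0.519 FPKM in ectoderm, and 0.0792 and 0.399 FPKM in endoderm. It was listed at 0 in all 14 in vivo libraries before E7.5, and its 4 tissues at E7.5 did not overlap.

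**Figure D2:**
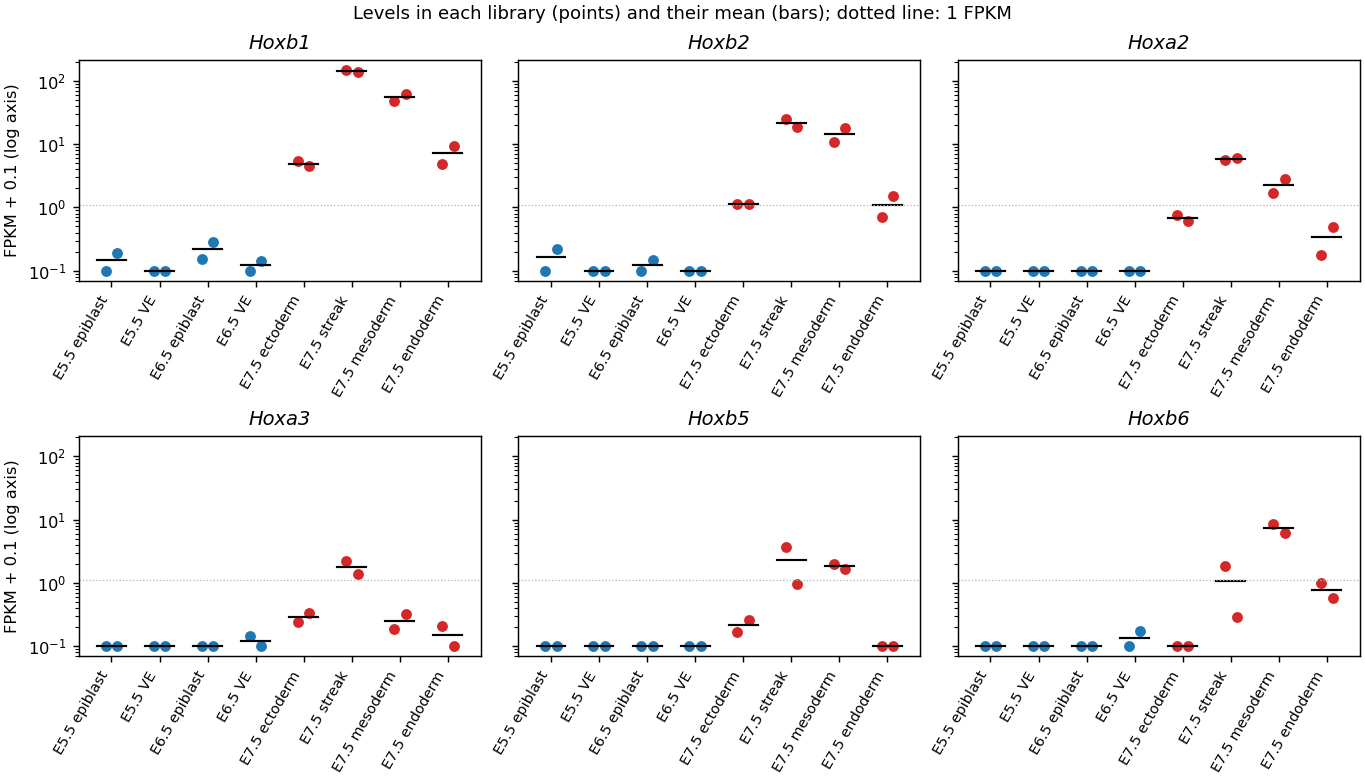
Level of 6 Hox genes in each library of the E5.5 to E7.5 groups, as FPKM + 0.1 on a log axis; points are the 2 libraries, bars their mean, E7.5 in red and earlier stages in blue, and the dotted line is 1 FPKM. No gene reaches the line before E7.5, and Hoxb5 and Hoxb6 show the spread between the 2 streak libraries, from 3.59 to 0.878 FPKM for Hoxb5.

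Among the later paralogs, expressed in trunk mesoderm and spinal cord at later stages, Hoxb6 and Hoxb5 were the most abundant. Hoxb6 was at 8.60 and 6.06 FPKM in mesoderm, 1.78 and 0.192 FPKM in streak, 0.893 and 0.470 FPKM in endoderm, and listed at 0 in ectoderm. It was the only member of at least 2 FPKM in any E7.5 tissue mean whose highest mean lay in mesoderm. Hoxb5 was at 3.59 and 0.878 FPKM in streak, 1.91 and 1.58 FPKM in mesoderm, 0.0669 and 0.161 FPKM in ectoderm, and listed at 0 in endoderm. Hoxd9 reached 2.24 and 1.25 FPKM in mesoderm, against 1.04 and 0.168 FPKM in streak. Hoxa3 reached 2.11 and 1.31 FPKM in streak and at most 0.233 FPKM in the other 3 tissues.

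The 2 streak libraries disagreed on the middle of the clusters. Paralogs 4 to 8 summed to 14.4 FPKM in streak replicate 1 and 4.04 FPKM in replicate 2, and 11 against 4 members reached 1 FPKM. Hoxb1 was closer, at 147 and 138 FPKM, as were the second-group genes, which summed to 30.6 and 24.1 FPKM. The same 2 libraries differed in Cdx4, at 19.0 and 7.40 FPKM, and in Cdx1, at 36.7 and 17.3 FPKM, but not in the same sense in T, a streak marker, at 302 and 325 FPKM. The part of this difference between the libraries in the comparisons of the streak was not tested, beyond leaving out each library.

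Summed over paralog numbers 2 to 13, Hox levels were 50.5 and 31.6 FPKM in streak, 32.3 and 32.9 FPKM in mesoderm, 3.41 and 3.505 FPKM in endoderm, and 2.96 and 2.04 FPKM in ectoderm. Hoxa2 and Hoxb2 held 60.5% and 76.3% of this sum in streak, 38.4% and 63.4% in mesoderm, 56.9% and 76.9% in ectoderm and 20.2% and 51.2% in endoderm. These shares varied widely between replicates. Those of streak, mesoderm and ectoderm overlapped, as did those of mesoderm and endoderm. Across the 36 genes, Spearman's rho between paralog number and mean level was -0.62 in streak, -0.46 in mesoderm, -0.44 in ectoderm and -0.34 in endoderm. Within clusters it was between -0.49 and -0.75 in streak and mesoderm for Hoxa, Hoxb and Hoxc, but -0.13 and 0.04 for Hoxd. In ectoderm it was -0.81 for Hoxa, -0.38 for Hoxb, 0.09 for Hoxc and -0.08 for Hoxd, and in endoderm -0.51, -0.37, -0.09 and -0.22. These are descriptions over genes that share the same libraries, many of them tied at or near 0.

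**Figure D3:**
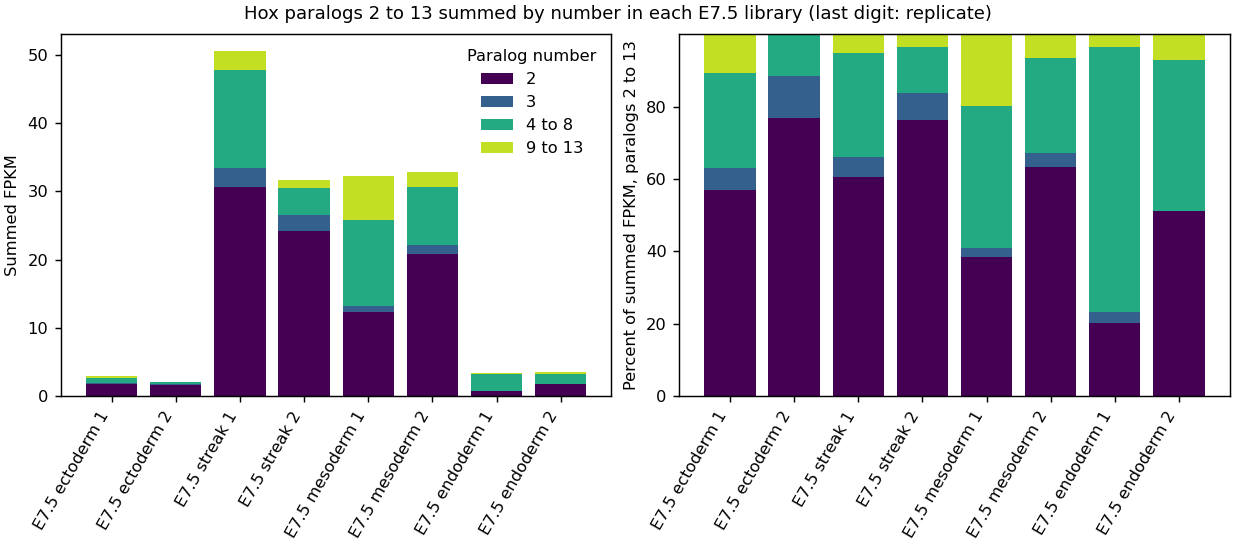
Hox FPKM of paralog numbers 2 to 13 summed by number in each of the 8 E7.5 libraries (left), and the same as a percentage of that sum in the library (right). The streak and mesoderm bars reach 31.6 FPKM or more while no ectoderm or endoderm bar exceeds 3.505 FPKM, and numbers 9 to 13 take most room in mesoderm replicate 1, at 6.41 FPKM.

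The Hoxc cluster, which has no paralog below number 4, was almost silent at E7.5. Hoxc4 held its highest value at E7.5, with 1.81 and 0.358 FPKM in streak, and was at 0.568 and 0.115 FPKM in mesoderm. In Hoxa and Hoxb, the streak also had Hoxa5 at 2.00 and 0.952 FPKM, Hoxa4 at 1.22 and 0.403 FPKM, and Hoxb7 at 2.68 and 0.403 FPKM. All 4 of these genes were higher in streak replicate 1. Hoxb3, which lies between Hoxb2 and Hoxb4, was at 0.636 and 0.837 FPKM in streak and 0.697 and 0.898 FPKM in mesoderm, far under Hoxb2 in the same libraries. Hoxb4 was at 0.733 and 0.536 FPKM in streak and at most 0.132 FPKM in the other E7.5 tissues.

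The posterior ends of the clusters were low as well. Paralogs 9 to 13 summed to 2.66 and 1.099 FPKM in streak, 6.41 and 2.15 FPKM in mesoderm, and at most 0.314 FPKM in ectoderm and endoderm. In mesoderm replicate 1, Hoxa10 and Hoxd9 made up most of that sum. Both lay lower in replicate 2. The 9 members of paralog numbers 11 to 13 did not exceed 0.224 FPKM in any E7.5 library. Hoxd10, at 0.430 and 0.250 FPKM, was the most abundant Hoxd gene beyond Hoxd9 in mesoderm.

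The first comparison addressed which Hox genes separate the E7.5 primitive streak from E6.5 epiblast. Of the 13 tested members, 5 rose and none fell: Hoxb1, Hoxa2, Hoxb2, Hoxa3 and Hoxb5. Among all tested genes, 2.56% were called higher in the streak. The difference was 7.01 ± 0.24 (SE, log2) for Hoxb1 with an adjusted p of 1.12e-13 by limma, and 4.45 ± 0.22 for Hoxb2 with 1.24e-11. Hoxa2, Hoxa3 and Hoxb5 were listed at 0 in both E6.5 epiblast libraries, so no fold is given, and their adjusted p by limma was 1.76e-10, 4.05e-07 and 0.000152. The median difference of the 13 members was 0.97 and that of all genes 0.00. Many of the 13 passed the filter only through E7.5 libraries, so the count and the median are descriptions. Hoxa3 would not have passed it without the streak, so its call is a description as well. Without streak replicate 2 the count was 8, with Hoxb6, Hoxb7 and Hoxc4 added. The call of Hoxb5 was lost without streak replicate 1, which left 4, and in the fit of these 2 groups alone, where its adjusted p was 0.15 by limma.

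Mesoderm differed from E6.5 epiblast in more members. Of 13, 7 rose and none fell, against 4.14% of all genes called higher in mesoderm. Of these, Hoxb5, Hoxb6, Hoxd1 and Hoxd9 would not have passed the filter without mesoderm, so their calls are a description. Hoxb1 was higher by 5.63 ± 0.24 (SE, log2; adjusted p 1.58e-12 by limma) and Hoxb2 by 3.87 ± 0.22 (9.42e-11). Hoxd1, at 0.0572 and 0.0424 FPKM in the epiblast, was higher by 1.18 ± 0.14 (4.43e-06), and Hoxd9 by 1.40 ± 0.23 (0.000220). Hoxa2, Hoxb5 and Hoxb6 rose from a group listed at 0, with adjusted p of 2.72e-07, 0.000198 and 5.28e-08 by limma. Hoxa10 was at 2.41 and 0.315 FPKM in mesoderm and missed the threshold (adjusted p 0.0756 by limma). The median difference of the 13 was 1.18, beside 0.00 for all genes.

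Ectoderm, which stays in the upper layer and includes the future neural plate, had a single call. Hoxb1 was higher than in E6.5 epiblast by 2.38 ± 0.24 (SE, log2; adjusted p 5.08e-06 by limma), and 1 of 13 members was thus called, where 0.497% of all genes were called higher. Hoxb2, at 0.995 ± 0.22 (adjusted p 0.0231 by limma), and Hoxa2, at 0.66 ± 0.16 (0.0394), passed the adjusted p but not the size asked for. A pseudocount of 0.1 gave 3 calls and quantile normalization gave 2. The median of the 13 was 0.13, beside -0.15 for all genes. With these 2 groups fitted alone Hoxb1 was not called, at an adjusted p of 0.108 by limma, and that fit called none of the 13493 genes. Markers of nascent and paraxial mesoderm (Mesp1, Tbx6, Msgn1, Dll1, Dll3, Lefty2) summed to 15.8 and 1.84 FPKM in the 2 ectoderm libraries, with Msgn1 at 0 in replicate 2, and to 389 and 421 FPKM in the streak. T was at 14.7 and 2.51 FPKM in ectoderm. Their part in the difference of Hoxb1 was not tested.

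Endoderm at E7.5 was set beside visceral endoderm at E6.5. Hoxb1 was higher by 2.91 ± 0.24 (SE, log2; adjusted p 8.01e-08 by limma), and 1 of 13 members rose where 3.39% of all genes were called higher. Hoxa10 fell by 2.99 ± 0.35 on the log2 scale (5.44e-06), the 1 member that fell, where 0.875% of all genes were called lower. Markers of nascent and paraxial mesoderm, none of the 6 at 0, summed to 29.6 and 51.2 FPKM in E7.5 endoderm and to 3.61 and 5.89 FPKM in E6.5 visceral endoderm, and T was at 47.9 and 45.7 FPKM against 0.551 and 1.02 FPKM. Their part in the rise of Hoxb1 was not tested.

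**Figure D4:**
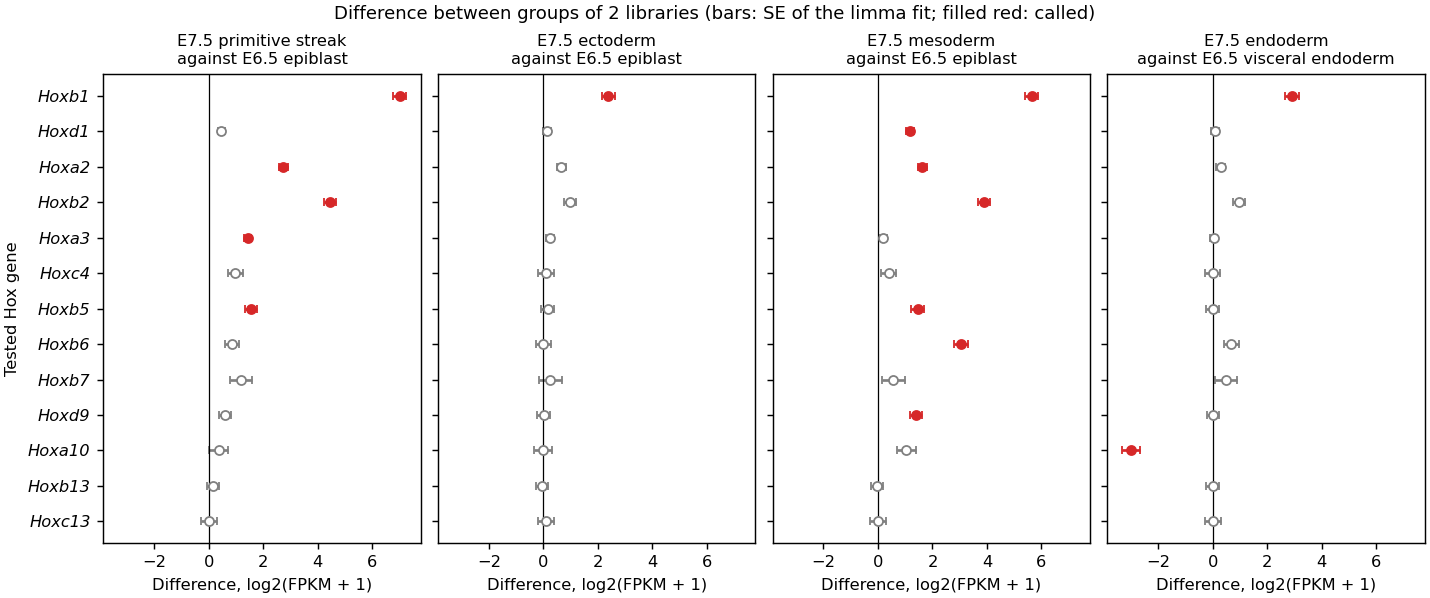
Difference between groups on the log2(FPKM + 1) scale for 13 tested Hox genes, in 4 comparisons of E7.5 tissue with its E6.5 reference; points are limma estimates from 2 libraries a group, bars their SE, and filled red points passed the test. Hoxb1 is filled in all 4 panels, and Hoxa10 is the only point filled to the left of 0. Where the reference is listed at 0 the position shows the level reached, not a fold.

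Within E7.5 the streak was set against the ectoderm. Of 13 members 5 were higher in the streak and none lower, against 1.67% of all genes called higher: Hoxb1 by 4.63 ± 0.24 (SE, log2; adjusted p 1.76e-10 by limma), Hoxb2 by 3.46 ± 0.22 (1.44e-09), Hoxa2 by 2.07 ± 0.16 (2.77e-08), Hoxb5 by 1.40 ± 0.24 (0.000865) and Hoxa3 by 1.18 ± 0.14 (9.63e-06). Without streak replicate 1 the calls of Hoxa3 and Hoxb5 were lost, leaving 3. The fit of these 2 groups alone called no gene of any kind. Hoxa3 would not have passed the filter without the streak, so its call is a description.

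Passing from streak to mesoderm, 3 of 13 members were lower and 1 was higher. Hoxb1 fell by 1.37 ± 0.24 (SE, log2; adjusted p 0.000971 by limma), Hoxa3 fell by 1.22 ± 0.14 (3.24e-06) and Hoxa2 fell by 1.104 ± 0.16 (9.91e-05), where 1.81% of all genes were called lower. Hoxb6 rose by 2.18 ± 0.26 (1.19e-05), where 1.57% were called higher. Hoxa3 would not have passed the filter without the streak, nor Hoxb6 without mesoderm, so both calls are a description. Hoxb2 and Hoxb5 were not called between these tissues, and the libraries of Hoxb5 overlapped. The call of Hoxa2 was lost without mesoderm replicate 1. In the fit of these 2 groups alone only Hoxb1 was called. With a pseudocount of 0.1 in place of 1, Hoxa2 and Hoxb1 were not called (adjusted p 0.109 and 0.207 by limma).

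Mesoderm exceeded ectoderm in 6 of 13 members, with none lower, where 3.09% of all genes were called higher. Hoxb1 was higher by 3.26 ± 0.24 (SE, log2; adjusted p 8.32e-09 by limma) and Hoxb2 by 2.88 ± 0.22 (1.13e-08), and Hoxb5, Hoxb6, Hoxd1 and Hoxd9 were called too. Hoxb5, Hoxb6, Hoxd1 and Hoxd9 would not have passed the filter without mesoderm, so their calls are a description. The median of the 13 was 1.04, beside 0.18 for all genes. The fit of these 2 groups alone called no gene.

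Mesoderm exceeded endoderm in 7 of 13 members, with none lower, where 2.24% of all genes were called higher. They were Hoxb1, by 2.85 ± 0.24 (SE, log2; adjusted p 2.25e-08 by limma), Hoxb2, by 2.93 ± 0.22 (3.04e-09), and Hoxa2, Hoxb5, Hoxb6, Hoxd1 and Hoxd9. The median of the 13 members was 1.12 and that of all genes 0.01. Every one of the 7 had both mesoderm libraries above both endoderm libraries. Among them, Hoxb5, Hoxb6, Hoxd1 and Hoxd9 would not have passed the filter without mesoderm, so their calls are a description. Tested as a difference of differences by limma, the change from E6.5 epiblast to mesoderm and that from E6.5 visceral endoderm to endoderm differed for 8 of 13 members, where 5.65% of all genes were called. These were Hoxa2, Hoxa10, Hoxb1, Hoxb2, Hoxb5, Hoxb6, Hoxd1 and Hoxd9, and for all 8 the change toward mesoderm was the higher. For Hoxa10 this came mostly from its fall in the endoderm pair (-2.99). Its rise to mesoderm (1.03) was not called (adjusted p 0.0756 by limma). Except for Hoxa10, both E6.5 references were at or near 0, so this largely repeats mesoderm against endoderm. With a pseudocount of 0.1 the count was 4, and Hoxb1 was not called (adjusted p 0.0862 by limma).

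Hoxa10, an Abdominal-B type gene known for its role in the uterus and limb, had a profile of its own. It was at 2.71 and 6.78 FPKM in E5.5 visceral endoderm and 6.27 and 8.19 FPKM in E6.5 visceral endoderm. In epiblast at E5.5 and E6.5 it was at most 0.0719 FPKM, and in E7.5 endoderm it was at 0 and 0.0532 FPKM. Inner cell mass at E4.0 had 0.915 and 1.35 FPKM, and the E3.5 groups were listed at 0.

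The visceral endoderm markers, none of the 6 at 0, summed to 5719 and 6258 FPKM at E6.5 and 5568 and 5082 FPKM in E7.5 endoderm, and their part in the fall of Hoxa10 was not tested. Its neighbour Hoxa9 was listed at under 0.0001 FPKM in every visceral endoderm library in vivo, and Hoxa11 reached 1.08 FPKM in 1 of 4. Other members in visceral endoderm were low, with Hoxb7 at 1.69 FPKM in E5.5 replicate 2 and Hoxa7 at 0.697 and 0.655 FPKM at E6.5. The libraries do not keep strand, so reads of antisense transcripts at Hoxa10 cannot be told apart from its own. The annotation is not given in the sources used here, and the same holds for reads of other overlapping transcripts.

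Cultured tissue had the same arrangement of Hoxa10. After 4 days in culture it was at 3.41 and 1.73 FPKM in visceral endoderm and listed at 0 in both epiblast libraries, and it was the only member called there (adjusted p 0.000539 by limma), where 13.6% of all genes were called higher in visceral endoderm. Fitted on these 4 libraries alone, its adjusted p was 0.0504 by limma. In the cultured epiblast Hoxb1, Hoxa2 and Hoxb2 were listed at 0 in both libraries, and paralog numbers 2 to 13 summed to 0.504 and 2.72 FPKM. The larger sum rested on scattered values in replicate 2, the highest being 0.989 FPKM for Hoxc9.

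Embryos cultured for 1 or 2 days had Hoxc13 and Hoxb13, the last members of their clusters. Hoxc13 was at 4.68 and 0.988 FPKM after 1 day and 3.74 and 4.93 FPKM after 2 days, which overlapped (adjusted p 0.195 by limma). Hoxb13 was listed at 0 after 1 day and was at 1.61 and 3.06 FPKM after 2 days. It was the only member called (adjusted p 6.2e-05 by limma), where 4.08% of all genes were called higher after 2 days. Fitted on these 4 libraries alone its adjusted p was 0.849 by limma, and that fit called no gene.

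Hoxb1 did not exceed 0.00962 FPKM in these 4 libraries. In the in vivo table Hoxb13 stood out in E3.5 inner cell mass, at 3.35 and 3.86 FPKM in the 2 columns that appear to share reads, against 0 and 0.126 FPKM in trophectoderm and 0.646 and 0 FPKM in E4.0 inner cell mass. The tables were normalized separately, so levels are not compared between them. Trophectoderm markers (Cdx2, Gata3, Krt8, Krt18, Elf5, Tfap2c), none of the 6 at 0, summed to 1387 and 1300 FPKM after 1 day and 3542 and 1537 FPKM after 2 days, and inner cell mass markers to 200 and 233 FPKM and 9.92 and 301 FPKM. The 2-day replicates thus differed widely in both sums, and the part of this in the Hox values was not tested.

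**Figure D5:**
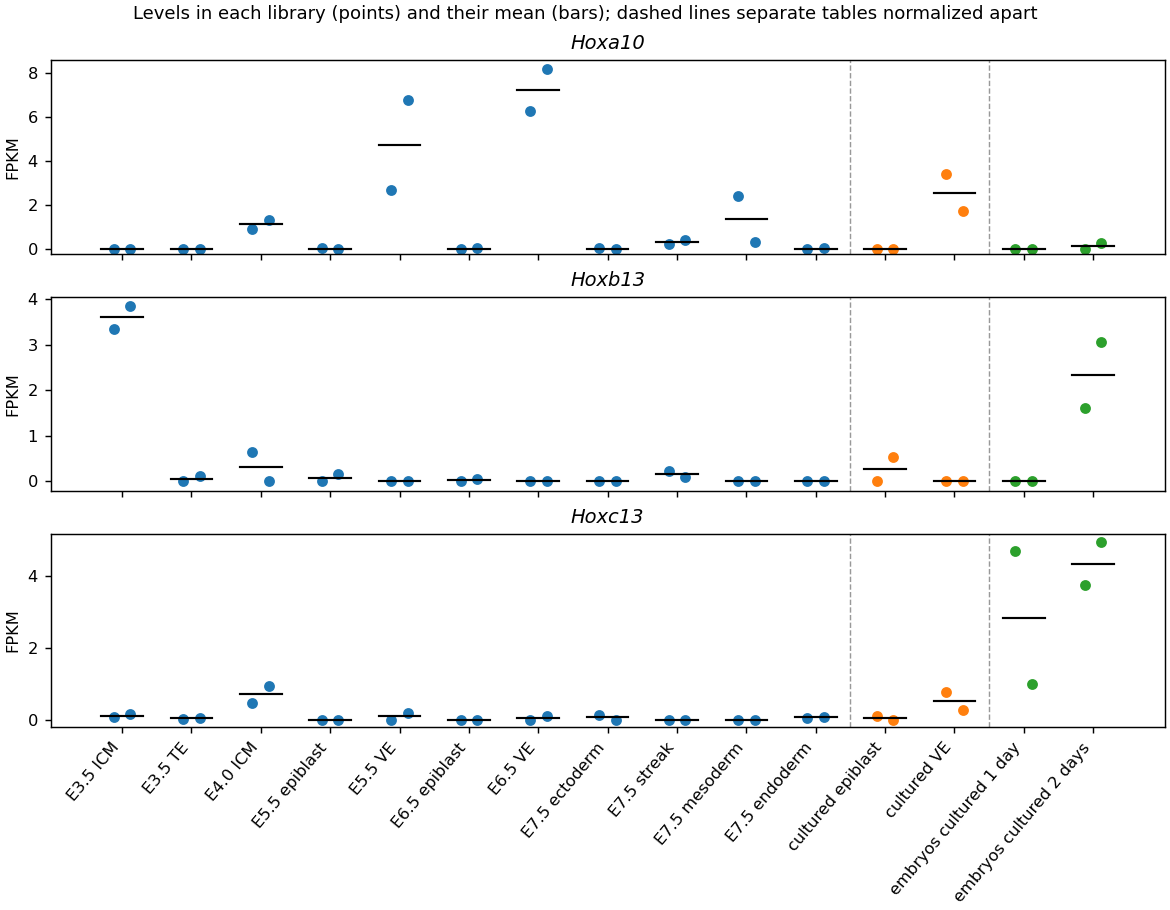
Level of Hoxa10, Hoxb13 and Hoxc13 in each of the 30 libraries, in FPKM on a linear axis; points are the 2 libraries of a group, bars their mean, and dashed lines separate the 3 tables, which were normalized apart. Hoxa10 is high in visceral endoderm, up to 8.19 FPKM, Hoxb13 in E3.5 inner cell mass and after 2 days of culture, and Hoxc13 after 1 and 2 days of culture.

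Some Hox cofactors of the TALE family rose as well. Of 8 tested, 3 rose from E6.5 epiblast to streak (Meis1, Meis2 and Pknox2; 2.56% of all genes), 3 to mesoderm (the same 3; 4.14%) and 2 to ectoderm (Meis2 and Pknox2; 0.497%), and none fell. From E6.5 visceral endoderm to endoderm only Pknox2 rose (3.39%). Pknox2 went from 0.200 and 0.283 FPKM in E6.5 epiblast to 25.8 and 31.1 FPKM in streak, 12.3 and 18.8 FPKM in mesoderm and 11.9 and 11.5 FPKM in ectoderm. Meis1 was highest in mesoderm, at 20.2 and 25.0 FPKM, against 1.64 and 1.92 FPKM in streak, a called difference of 3.08 ± 0.35 (SE, log2; adjusted p 4.8e-06 by limma). The median of the 8 was 0.16 in the streak comparison, beside 0.00 for all genes.

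The ParaHox and Evx genes are sister genes of the Hox clusters. Of 5 tested, 4 rose there from E6.5 epiblast (Cdx4, Cdx2, Cdx1 and Evx1), 2 rose in mesoderm (Cdx4 and Cdx2) and none was called in ectoderm or endoderm, beside 2.56% of all genes called higher in streak and 4.14% in mesoderm. The median of the 5 was 3.70 in streak and 0.58 in mesoderm, on the log2 scale. Cdx4, known as a direct activator of Hox genes, was at 19.0 and 7.40 FPKM in streak and 22.9 and 12.8 FPKM in mesoderm, and listed at 0 in E6.5 epiblast. Cdx1 was at 36.7 and 17.3 FPKM in streak and 0.523 and 0.532 FPKM in mesoderm, a fall called by limma (adjusted p 0.00027). Pdx1, Gsx1 and Gsx2 did not exceed 1.38 FPKM in any E7.5 library, and Evx2 was listed at 0.

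Signals that act upstream of the clusters changed in both directions. Of 17 tested, 5 rose from E6.5 epiblast to streak (Wnt3a, Aldh1a2, T, Wnt8a and Wnt5a) and none fell, beside 2.56% of all genes called higher. In mesoderm 6 rose, where 4.14% of all genes did, and Fgf8 and Wnt8a fell, where 3.31% did. In ectoderm Wnt3a and Wnt8a rose (0.497% of all genes) and Fgf8 fell (0.578%). From E6.5 visceral endoderm to endoderm 7 rose (3.39%) and 3 fell (0.875%), namely Cyp26a1, Fgf8 and Wnt3. The median of the 17 was 1.42 in streak, 0.90 in mesoderm, 0.61 in ectoderm and 0.66 in endoderm, on the log2 scale. Aldh1a2, the main retinoic acid synthesising enzyme of the early embryo, was at 148 and 118 FPKM in streak, 58.5 and 96.5 FPKM in mesoderm, 7.41 and 13.3 FPKM in endoderm and 1.31 and 0.132 FPKM in ectoderm. Wnt3a was at 60.1 and 53.3 FPKM in streak and 0.792 and 1.25 FPKM in mesoderm. Cyp26a1, which degrades retinoic acid, was at 737 and 866 FPKM in E6.5 visceral endoderm and 71.1 and 73.3 FPKM in E7.5 endoderm, a fall called by limma (adjusted p 0.0077).

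A further list, of genes named as having Hox input in the early embryo, had 9 tested. Of these, 4 rose from E6.5 epiblast to streak (Tbx6, Msgn1, Dll1 and Cdx1) and none fell, beside 2.56% of all genes called higher. Cdx1 is also in the ParaHox list, and Rarb and Cyp26a1 are also among the upstream signals, so their calls are counted in both. Whether Hox proteins act on these genes was not tested. In mesoderm 4 rose (Tbx6, Msgn1, Dll1 and Rarb, beside 4.14% of all genes) and Epha2 fell (3.31%). Epha2 also fell in ectoderm (0.578%). In endoderm Tbx6 and Msgn1 rose against E6.5 visceral endoderm (3.39%) and Cyp26a1 fell (0.875%). Of the chromatin regulators with known Hox phenotypes, such as the Polycomb and Trithorax proteins, 17 were tested. Only Phc2 rose in the streak (2.56% of all genes) and only Bmi1 in mesoderm (4.14%), with none lower. A single call among 17 does not set this list apart from all genes. The protein-coding neighbours of the clusters gave 12 tested genes. Of these, Skap2 and Evx1 rose in the streak (2.56% of all genes) and Snx10 fell in mesoderm (3.31%). Noncoding genes of the clusters could hardly be followed: 2 of 17 symbols were matched, of which Hotair was listed at 0 in every E7.5 library and Hoxa11as did not exceed 0.098 FPKM at E7.5.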

How the data were processed

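PolyA RNA was made into Smart-seq2 libraries, which do not keep strand, per the labels' protocols. The deposited FPKM values were made by the authors with TopHat2 2.0.11 and Cufflinks 2.0.2 on mm9, per the submitters' processing notes. Those of 1 epiblast library also list CASAVA 1.8 and BS-Seeker2. The annotation and strand setting are not given in the sources used here. The files hold no counts, so depth is unknown and no interval or floor from counts is given.

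The 3 tables of 22613, 22590 and 22592 rows were joined on the 22563 symbols they share, leaving out 27 rows whose symbols had become dates. Values under 1e-06 FPKM were taken as 0. limma 3.58.1 (R 4.3.3) was fitted with a trend on log2(FPKM + 1), 15 groups and 15 residual degrees of freedom, on genes of at least 1 FPKM in 2 libraries. The 11 comparisons share groups: E6.5 epiblast is the reference of 3, and each E7.5 tissue enters several, so their results are not independent. Of the 39 members 1, and 1 listed gene, are not reported here, so counts run over 38 members; all genes stayed in the fit. Members with a group mean of at least 2 FPKM were given by library; from each gene list tested members were counted and up to 4 with the smallest adjusted p were named, and other genes were named after their values were seen. Members and lists were chosen with earlier results of these data known. Promoter windows came from RefSeq (GRCm38.p6) and were matched by symbol. As alternatives, the pseudocount was set to 0.1, the filter was dropped or raised to 5 FPKM, values were quantile-normalized, a replicate block was added, the compared groups or their table were fitted alone, and each library was left out. E3.5 inner cell mass as 1 library and the difference between the mesoderm and endoderm changes were added after seeing the data. DNA methylation and Hi-C samples of the series (48 of 78 samples) were not used here.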

Additional observations from a re-analysis of the deposited data

Results flagged for a closer look

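The change from E6.5 epiblast to E7.5 mesoderm was set against that from E6.5 visceral endoderm to E7.5 endoderm by limma, as a difference of the 2 differences. It was called for 8 of the 13 tested members, where 5.65% of all 13493 genes were called in either direction. On the log2(FPKM + 1) scale it was 4.03 ± 0.49 (SE; adjusted p 1.45e-05 by limma) for Hoxa10, at most 0.0719 FPKM in E6.5 epiblast and 2.41 and 0.315 FPKM in mesoderm, and which fell in the endoderm pair. It was 2.90 ± 0.31 (3.44e-06) for Hoxb2, 2.72 ± 0.34 (2.38e-05) for Hoxb1 and 2.35 ± 0.37 (0.000302) for Hoxb6. It was 1.45 ± 0.33 (0.00827) for Hoxb5, 1.38 ± 0.32 (0.0096) for Hoxd9, 1.34 ± 0.23 (0.00054) for Hoxa2 and 1.09 ± 0.20 (0.00125) for Hoxd1. These 7 rose more toward mesoderm. With a pseudocount of 0.1 only 4 of the 8 were called, with Hoxb1 at an adjusted p of 0.0862 by limma, and Hoxd9 was not called without mesoderm replicate 1 (0.08). Both references are of one stage, and Hoxa2, Hoxb2 and Hoxb5 were listed at 0 in both E6.5 visceral endoderm libraries. Except for Hoxa10, both references were at or near 0, so the result largely repeats mesoderm against endoderm. For Hoxa2 and Hoxb5 the 2 values are the same. Hoxb5, Hoxb6, Hoxd1 and Hoxd9 would not have passed the filter without mesoderm.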

How the results depend on the processing

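Named Hox gene results numbered 43 over the 11 comparisons, of which 39 were called. All 39 remained called without a filter, under the replicate block and with E3.5 inner cell mass as 1 library, as did 38 under quantile normalization (Hoxd1 in mesoderm against ectoderm went to 0.96) and 37 each in the fit of the table alone and with a pseudocount of 0.1. Only 21 remained in fits of the 2 groups alone, which for 4 of the comparisons with calls found no gene of any kind. Counts of called members with a pseudocount of 0.1 went from 1 to 3 (ectoderm against epiblast), 2 to 4 (endoderm against visceral endoderm), 4 to 2 (mesoderm against streak), 1 to 2 (cultured epiblast against visceral endoderm) and 8 to 4 (difference of the mesoderm and endoderm changes). Quantile normalization took ectoderm against epiblast from 1 to 2. With the filter at 5 FPKM, which left 5 members tested, they went from 5 to 3 (streak against epiblast, and against ectoderm), 7 to 4 (mesoderm against epiblast, and against endoderm), 6 to 3 (mesoderm against ectoderm), 1 to 0 (2 days against 1 day of culture) and 8 to 5 (difference of the changes). With the 2 groups alone they went to 0 for ectoderm against epiblast, streak against ectoderm, mesoderm against ectoderm and both culture comparisons, and to 1 for mesoderm against streak. With the table alone both culture comparisons went to 0. The cause was not tested, beyond the fewer genes or libraries.

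Leaving out each library in turn gave 4 to 8 calls for streak against epiblast (8 without streak replicate 2), 1 in each case for ectoderm against epiblast, 7 to 8 for mesoderm against epiblast, 2 to 3 for endoderm against visceral endoderm, 3 to 7 for streak against ectoderm (3 without streak replicate 1), 3 to 6 for mesoderm against streak, 6 to 7 for mesoderm against ectoderm, 7 to 8 for mesoderm against endoderm, 7 to 8 for the difference of the changes and 1 to 2 for 2 days against 1 day (2 without 1-day replicate 1). Differences changed sign for Hoxb5 between mesoderm and streak (0.55 without streak replicate 1 and -0.74 without replicate 2) and for Hoxc13 between 2 days and 1 day (1.41 without 1-day replicate 1 and -0.10 without replicate 2); neither difference was called with all libraries.

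Replicate numbers pair nothing in the labels. The correlation of replicate differences between compared groups ran from -0.268 (mesoderm and epiblast) to 0.438 (ectoderm and epiblast), and the replicate block left the number of called members as it was in all 11 comparisons: 5, 1, 7, 2, 5, 4, 6, 7, 0, 1 and 1, and 8 for the difference of the changes. Counts over all genes moved by more than 1.5 times in several fits: for ectoderm against epiblast from 145 to 355 with the table alone, for mesoderm against ectoderm from 605 to 958, and for streak against epiblast from 504 to 863.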
